A study of Mus musculus with 10 samples.

Results

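H1f0 is the mouse gene for the replacement linker histone, and its m6A peaks were described in the 5 peak lists of a MeRIP-seq series in 3T3-L1 cells. A peak was taken as a member if it touched chromosome 15 from 79028450 to 79030504 (mm10, GRCm38), on either strand and under any gene name in the list. This gave 15 of the 17036 peaks in the 5 lists, or 11 in the 4 lists that differ from each other. The gene was chosen by measured values of these same lists, since the study uses it as an example of an mRNA with more m6A under rhein, so its values under rhein against DMSO are given here as a description with no test.

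3T3-L1 is a mouse preadipocyte line that turns into fat-cell-like cultures when fed an MDI induction medium after growth arrest, first passing through mitotic clonal expansion (MCE). Cells treated with DMSO were sampled as preadipocytes (Pre), at the MCE stage and as mature adipocytes (Diff), and cells treated with rhein at 20 µM from day 0 to day 3 were sampled at MCE and Diff. Rhein is a plant anthraquinone known as an inhibitor of FTO, an enzyme that removes m6A from RNA. Each of the 5 conditions had 1 library after immunoprecipitation with an anti-m6A antibody and 1 input library, all from 1 cell line, so no value below has a replicate error, and the number of reads behind a peak is unknown.

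Linker histones bind the DNA that enters and leaves the nucleosome and compact the fiber. Most are made mainly while DNA is copied, from mRNAs that end in a stem loop without a poly(A) tail. H1f0 belongs to the other kind, since its mRNA is polyadenylated and made outside S phase, and its product is known to build up in cells that stop dividing and differentiate. m6A is the most frequent internal mark of mRNA. It lies mostly around the stop codon and in the 3′ UTR, and GGAC is its best known short sequence.

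Under DMSO the lists held 2824 peaks at Pre, 5128 at MCE and 2944 at Diff, and under rhein 3069 at MCE and 3071 at Diff. Each peak carries 1 value, used here as a score whose rank within a list gives the strength of the call, because values of up to 735.3 cannot be the log2 fold change that the column header names. The rhein lists are nearly one list: 3067 spans were identical, the scores of 2896 of these differed by less than 0.02, and 75 differed by over 1. They were counted as 1 sample, with rhein MCE in the main text, and the stages under rhein cannot be told apart from them. Values given in list order below follow the distinct lists, that is Pre, MCE and Diff under DMSO and then rhein MCE. A rank given as a percent also depends on list length, so the same rank is a smaller percent in the long DMSO MCE list. Of 3 preadipocyte markers, Pdgfra had a peak in all 4 distinct lists and Col1a1 in DMSO Pre, while Dlk1 had none. None of 7 adipocyte markers, which included Pparg, Fabp4 and Adipoq, had a peak in any list. Of all annotated protein-coding genes, 6.70% to 12.5% had a peak in a given list, so none of 7 is near that background, and a gene needs both reads and methylation to be listed. These counts therefore say little about the stage labels.

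H1f0 (ENSMUSG00000096210) is a gene of a single exon on the plus strand. In GENCODE M21 its transcript of 2055 bases has a 5′ UTR of 272 bases, a coding sequence of 585 bases with the stop codon at 79029304 to 79029306, and a 3′ UTR of 1198 bases. The RefSeq model starts 238 bases further upstream, at 79028212. On the minus strand GENCODE places the antisense transcript Gm49544, from 79026456 to 79028612, which shares 163 bases with the start of H1f0.

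GGAC occurred 10 times on the sense strand of the H1f0 transcript. The 6 sites that lay under a peak in at least 1 list are shown first, since they mark where the lists agree and part, each in 30 bases of the plus strand of mm10 with the motif in capitals. The number is the first base of the motif on chromosome 15.
5′ UTR, 79028564: acccgcgccgggaGGACaggagccacgcgt
3′ UTR, 79029320: agactttgcttggGGACactccttcctccc
3′ UTR, 79029416: actttattaaagaGGACagagtttggatcc
3′ UTR, 79029483: acctattgtgcaaGGACagcaaacagacct
3′ UTR, 79029645: tggctaggtgaggGGACccaggaactaagg
3′ UTR, 79029968: gttaaatgcgagtGGACttagggggagggg
The only GGAC of the coding sequence lay under no peak in any list and is given for contrast.
CDS, 79028790: ccaagaagtccacGGACcaccccaagtatt
The last 107 bases of the coding sequence, chr15:79029200-79029306, were the only coding bases under a peak. They encode the end of the lysine-rich tail of the protein, hold no GGAC, and are shown with the stop codon in capitals.
CDS end: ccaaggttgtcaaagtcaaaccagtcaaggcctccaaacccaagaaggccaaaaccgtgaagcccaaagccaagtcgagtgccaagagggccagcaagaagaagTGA

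**Figure D1:**
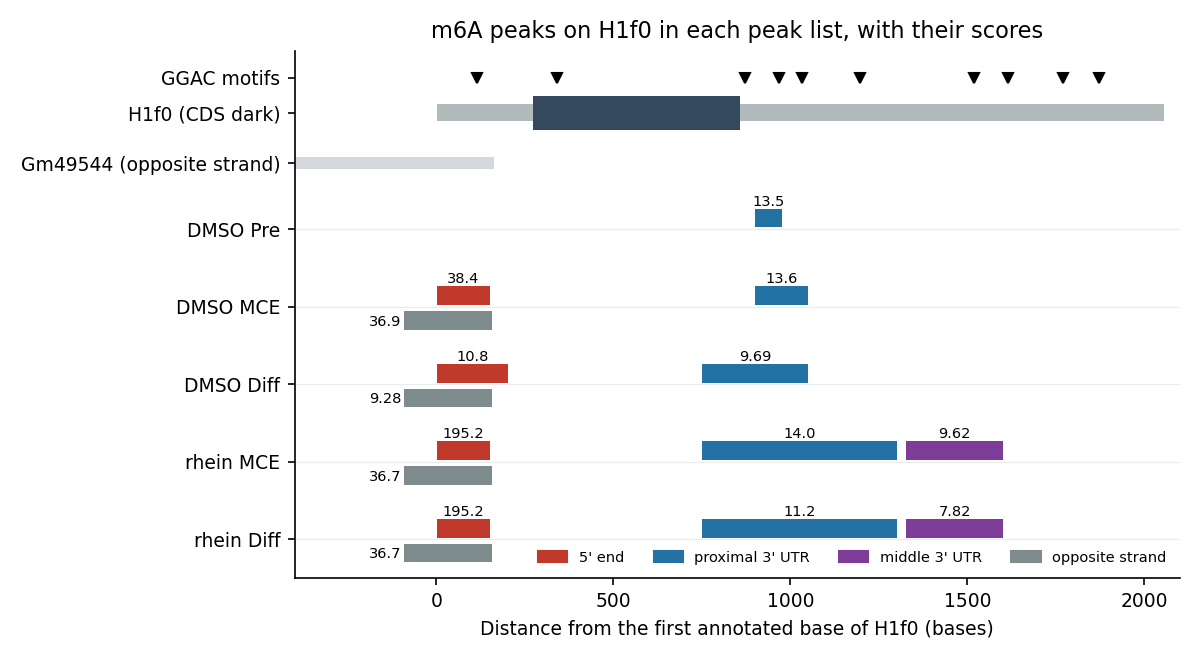
Position of every H1f0 peak in the 5 lists, in bases from the first annotated base of the gene, with plus-strand peaks above each line, minus-strand peaks below it and the score beside each bar. Arrowheads mark the 10 GGAC motifs. A peak just after the stop codon is in each list, and the 5′ peak and the minus-strand peak are in each list but DMSO Pre.

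H1f0 carried m6A peaks in every condition, but their number and place differed. On its own strand it had 1, 2, 2 and 3 peaks in list order. Of 3658 protein-coding genes with a peak in any list, 562 (15.4%) had one in each of the 4 distinct lists. A total of 3 or more was reached by 246 of the 1637 coding genes with a peak in rhein MCE (15.0%). Of 1248 coding genes with a peak in both MCE lists, 211 (16.9%) had more peaks in rhein MCE. Only Spop, for an adaptor of a ubiquitin ligase, had the same 4 numbers of peaks as H1f0 among the 562 genes.

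The peak common to all lists sat just after the stop codon. In DMSO Pre it ran from 79029350 to 79029424, 75 bases, with a score of 13.5 and rank 491 of 2824. In DMSO MCE it kept this start and ran to 79029499, 150 bases, with a score of 13.6 and rank 477 of 5128. In DMSO Diff it started at 79029200 and ended at 79029499, 300 bases, with a score of 9.69 and rank 984 of 2944. It was thus longer at each later stage in DMSO, first at its 3′ end and then at its 5′ end. By rank it stood in the top 17.4% in DMSO Pre, 9.30% in DMSO MCE and 33.4% in DMSO Diff. Of 1264 DMSO Pre peaks shared with DMSO MCE, 589 (46.6%) were longer in DMSO MCE. Of 1332 DMSO MCE peaks shared with DMSO Diff, 458 (34.4%) were longer in DMSO Diff.

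In rhein MCE the same peak ran from 79029200 to 79029749. It covered 550 bases, of which 107 were coding and 443 lay in the 3′ UTR, with a score of 14.02 and rank 534 of 3069. It was therefore 3.67 times as long as its partner in DMSO MCE, and only 38 peaks of the list (1.24%) were as long or longer. Its rank was in the top 17.4% of the list, against 9.30% for that partner. The ranks themselves, 534 and 477, were close, and DMSO MCE is the longer list. Of 1643 DMSO MCE peaks shared with rhein MCE, 577 (35.1%) had longer partners and 166 (10.1%) had partners at least 3 times as long. After a gap of 25 bases a second 3′ UTR peak followed in rhein MCE, from 79029775 to 79030049, with a score of 9.62 and rank 1003. This peak of 275 bases had no partner in any DMSO list, and the list gave it to Gcat, the next gene, although it lies 469 to 743 bases after the stop codon of H1f0 and inside its exon. A count by listed name would miss it.

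These 3′ UTR peaks are among the few that differed between the rhein lists. In rhein Diff the long peak had a score of 11.2 and rank 769 of 3071, and the second peak a score of 7.82 and rank 1613. Both spans were identical in the 2 lists, and both are among the 75 of 3067 identical spans whose scores differed by over 1. The second peak was thus in the top 32.7% in rhein MCE and in the top 52.5% in rhein Diff. As the rhein lists were counted as 1 sample, this is no measure of spread between samples. At the 5′ end the rhein lists gave the same span, the same score of 195 and the same rank.

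**Figure D2:**
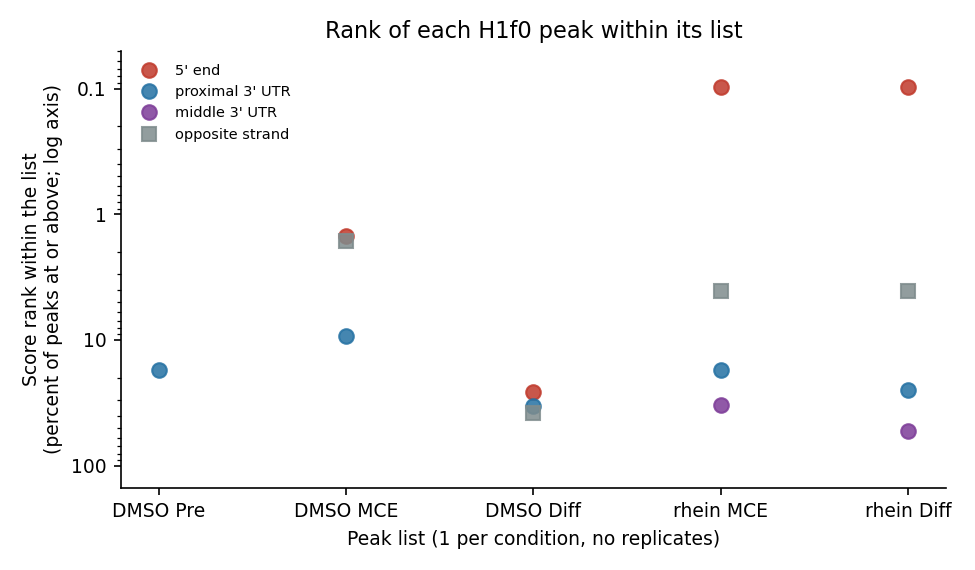
Rank of each H1f0 peak within its own list, as the percent of peaks with that score or a higher one, on a log axis with the strongest peaks at the top. In rhein the 5′ peak stands at 0.0978% while the minus-strand peak stands at 4.11%, whereas they stood close together in DMSO MCE, at 1.502% and 1.62%. The minus-strand ranks were 126 of 3069 in rhein MCE and 83 of 5128 in DMSO MCE, so list length enters these percents.

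The 5′ peak started at the first annotated base of H1f0 wherever it was listed. It was not in DMSO Pre. In DMSO MCE it ran from 79028450 to 79028599, 150 bases, with a score of 38.4 and rank 77. In DMSO Diff it ran to 79028649, 200 bases, with a score of 10.8 and rank 763. In rhein MCE it had the same span as in DMSO MCE, with a score of 195 and rank 3. The peak was thus near the top of the list in DMSO MCE, in the top 25.9% in DMSO Diff and at rank 3 in rhein MCE.

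Starting at the first annotated base is uncommon among all peaks, at 3.34%, 2.75%, 4.12% and 4.13% of the placed peaks in list order. Those in coding genes numbered 10, 51, 15 and 27. Of the 137 such peaks of DMSO MCE, coding or not, 34.3% were shared with DMSO Pre, 43.1% with DMSO Diff and 52.6% with rhein MCE. By score the H1f0 peak was the first of the 51 in DMSO MCE, the third of 15 in DMSO Diff and the second of 27 in rhein MCE. Whether methylated fragments also lie in the 238 bases that RefSeq adds upstream was not tested. m6A and the cap-adjacent m6Am are both bound by anti-m6A antibodies, and the files do not separate them at a first base.

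The identical span allowed the scores of the MCE lists to be set side by side. The 282 spans identical in both had a higher score in rhein MCE in 110 cases (39.0%) and a better rank percentile in 65 (23.0%). The second count also depends on list length, since the same rank is a larger percent in the shorter rhein MCE list. At the H1f0 5′ peak the score was 157 higher in rhein MCE, 5.09 times that in DMSO MCE, which was the second largest rise of the 282. Zfp36l2, for an mRNA decay protein, had the largest at 181, and Slc35e3, a member of a transporter family, came next at 82.3. Scores of different lists also depend on the depth of each pair of libraries, which is unknown, and the gene was chosen for this contrast.

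**Figure D3:**
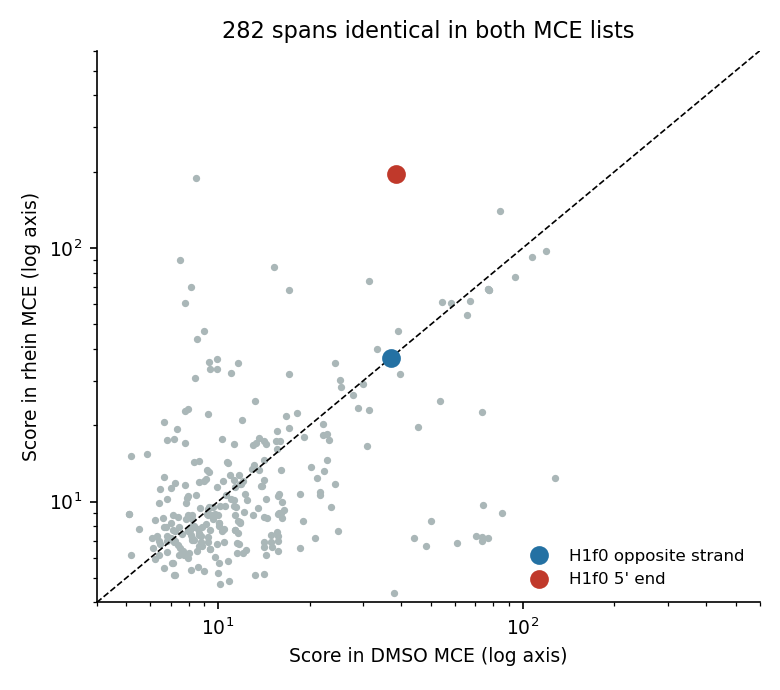
Scores of the 282 spans that were identical in DMSO MCE (x) and rhein MCE (y), both on log axes, with equality as a dashed line. The H1f0 5′ peak rose from 38.4 to 195, while the minus-strand peak over the same bases sits on the line, at 36.9 and 36.7.

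The peak on the opposite strand gave a different picture. It ran from 79028356 to 79028605, 250 bases, in every list but DMSO Pre, where it was not listed. It starts 94 bases before the GENCODE start of H1f0 and covers all 150 bases of the 5′ peak of DMSO MCE and rhein MCE. Its higher end lies 7 bases from the start of Gm49544, so it is placed at the beginning of that antisense transcript, but all 250 bases also lie within the RefSeq model of H1f0 on the other strand. Although on the minus strand, it was listed under H1f0. Peaks were called at the default settings of the caller, and the sources used here do not say how these treat strand, so RNA of H1f0 and of Gm49544 cannot be told apart here.

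The score of this minus-strand peak was 36.9 in DMSO MCE (rank 83). It was 9.28 in DMSO Diff (rank 1113), and rhein MCE gave 36.7 (rank 126). It was close to the score of the H1f0 5′ peak at both DMSO stages, where the larger was 1.04 and 1.16 times the smaller. In rhein MCE the H1f0 strand had 5.31 times the score of the opposite strand. So between DMSO MCE and rhein MCE the plus-strand score rose by 157 over bases where the minus-strand score fell by 0.111. From DMSO MCE to DMSO Diff the minus-strand score fell by 27.6, while the plus-strand peak, 50 bases longer in DMSO Diff, went from 38.4 to 10.8. In DMSO Diff the minus-strand span was again identical, and its score in rhein MCE was 27.5 higher, the eighth largest rise of 259 identical spans.

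Peaks on both strands of the same bases were usual. Among peaks wholly inside an exon of the opposite strand, the numbers that overlapped a peak there were, in list order, 47 of 93 (50.5%, 95% Wilson interval 40.6 to 60.5), 134 of 175 (76.6%, 69.8 to 82.2), 66 of 94 (70.2%, 60.3 to 78.5) and 104 of 132 (78.8%, 71.1 to 84.9). The intervals cover counting error only, and treat each peak as independent. Both peaks of a pair can be counted, so the intervals may be too narrow. Unequal scores were less usual. The median ratio of the larger to the smaller score was 1.06 over the 94 pairs of DMSO MCE, 1.31 over the 44 of DMSO Diff and 1.18 over the 63 of rhein MCE. In the same order, a ratio over 2 was seen in 2 pairs (2.13%), 10 (22.7%) and 14 (22.2%), and a ratio over 5 in 0 (0.00%), 2 (4.55%) and 3 (4.76%). The 3 pairs in rhein MCE were Gas1, for a membrane protein of growth arrest, with Gm48488 at 10.4, Hist1h2al with Gm44341 at 6.36, and H1f0 with Gm49544. In 4921516A02Rik with Pdxk, a pair whose spans were also identical in DMSO MCE and rhein MCE, the strands moved together, with changes in score of -8.68 and -8.39. In DMSO MCE the strands of that pair had the same score, 15.7, and some other pairs were tied as well. Whether the same reads were counted on both strands was not tested.

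**Figure D4:**
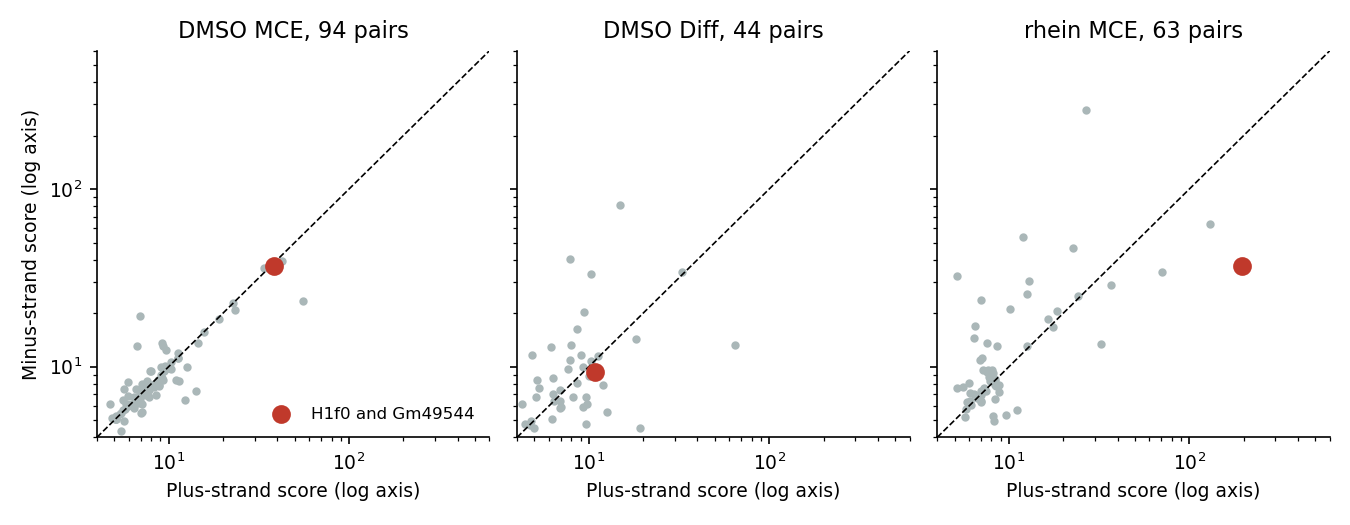
Scores of overlapping peaks on opposite strands, plus strand on x and minus strand on y, both on log axes, with equality as a dashed line, for DMSO MCE (94 pairs), DMSO Diff (44) and rhein MCE (63). The pair of H1f0 and Gm49544 lies on the line in DMSO MCE, near it in DMSO Diff, and at 195 against 36.7 in rhein MCE.

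Added over the plus strand, peaks covered 75 bases of H1f0 (3.65% of the transcript) in DMSO Pre and 300 (14.6%) in DMSO MCE. They covered 500 (24.3%) in DMSO Diff, against 975 (47.4%) for rhein MCE. The median over genes with a peak was 5.30%, 5.52%, 5.44% and 5.86% in list order. A share as large as that of H1f0 or larger was found in 64.3%, 17.8%, 16.2% and 8.97% of these genes. H1f0 is a short transcript, and a peak of a given length takes a larger share of it than of a long one.

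By region, rhein MCE and DMSO MCE had the same 150 bases of the 5′ UTR under a peak (55.1% of it), and the gain under rhein lay at the other end. There 107 coding bases were under a peak against 0 in DMSO MCE, and 718 bases of the 3′ UTR (59.9%) against 150 (12.5%). DMSO Diff had 200 bases of the 5′ UTR, the same 107 coding bases and 193 bases of the 3′ UTR (16.1%) under peaks. The coding end was thus under a peak at a later stage in DMSO as well, and the 525 further bases of the 3′ UTR under rhein had none in DMSO.

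**Figure D5:**
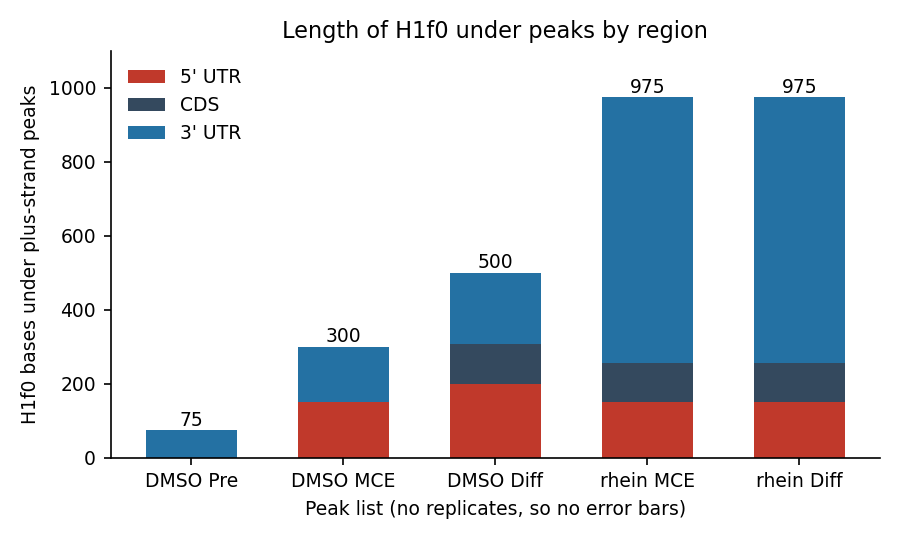
Bases of H1f0 under plus-strand peaks in each list, stacked by 5′ UTR, coding sequence (CDS) and 3′ UTR, with the total above each bar. The 3′ UTR part is 75, 150 and 193 bases in the DMSO lists and 718 in both rhein lists.

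The covered bases were nested. All 75 bases of DMSO Pre lay under peaks of every other list, all 300 of DMSO MCE lay under peaks of both later lists, and 450 of the 500 of DMSO Diff lay under peaks of rhein MCE. The core in all lists was the stretch of 75 bases from 79029350 to 79029424, which is 44 to 118 bases after the stop codon. Over all genes, DMSO Pre shared 44.8% of its peaks with DMSO MCE, 38.2% with DMSO Diff and 36.1% with rhein MCE. DMSO MCE shared 26.0% with DMSO Diff and 32.0% with rhein MCE, and DMSO Diff shared 45.8% with DMSO MCE and 40.0% with rhein MCE. No list had a peak from 79028650 to 79029199, a run of 550 bases that holds the end of the 5′ UTR and most of the coding sequence, nor in the last 455 bases of the gene. In all, 1025 bases were under a peak in some list and 1030 under none.

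Each plus-strand peak held at least 1 GGAC. Of the 10 sites, 1, 3, 4 and 6 lay under peaks in list order. Of all placed peaks, 53.2%, 52.9%, 48.2% and 52.2% held GGAC. The site at 79029416, 110 bases after the stop codon, was the one under a peak in all lists, and it reads GGACA. The site in the 5′ UTR and the one at 79029483 were under peaks in each list but DMSO Pre. The one at 79029320, 14 bases after the stop codon, was covered in DMSO Diff and rhein MCE, and the sites at 79029645 and 79029968 in rhein alone of the distinct lists.

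More bases under peaks hold more motifs, so the density is given too. Per kilobase of peak it was 13.3, 10, 8 and 6.15 for H1f0 in list order. Over all placed peaks it was 7.05, 7.10, 6.24 and 6.57, and over the whole H1f0 transcript 4.87. These values add the 5′ and 3′ peaks of a list, and the H1f0 value in rhein MCE was the only one under that of all peaks. The 3 remaining sites, at 79030064, 79030219 and 79030321 in the distal 3′ UTR, were under no peak and each read GGACT, as did the site at 79029968. The broader motif DRACH (A, G or T, then A or G, then AC, then A, C or T) occurred 47 times, with 2, 9, 14 and 26 under peaks. GC content was 71.7% in the 5′ UTR, 56.6% in the coding sequence and 45.4% in the 3′ UTR.

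Among the other linker histone genes, peaks were listed in 4 of the 6 replication-coupled Hist1h1 genes. Of the 6 Hist1h1 linker genes, 2, 4, 3 and 3 had a peak in list order. H1fx, H1fnt, H1foo and Hils1 had none in any list, and neither had Hist1h1a or Hist1h1t. The shares of all annotated protein-coding genes with a peak were 6.92%, 12.5%, 6.70% and 7.47%, so 0 of 4 genes is near the background. Those of the 6 Hist1h1 genes were higher, at 33.3%, 66.7%, 50% and 50%, but rest on few genes. Whether the kinds of linker histone differ was not tested. Near-identical histone copies can share reads, so peaks in the Hist clusters are less certain than those of H1f0.

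Hist1h1c, named H1f2 in the lists, was the only other linker histone gene with a peak in every list. Its peak lay in the 3′ UTR at chromosome 13 from 23739833 to 23740157, beginning 346 bases after the stop codon, with the same span and scores of 5.45, 6.85 and 7.03 in the lists other than DMSO MCE. In DMSO MCE it was longer, 450 bases, with a score of 37.1 and rank 80, next to the rank of 77 of the H1f0 5′ peak. So this 3′ UTR peak had its strongest call in DMSO MCE. By rank percentile the H1f0 peak after the stop codon also did, in the top 9.30%. The strongest H1f0 call, in rhein MCE, was its 5′ peak and thus lies at another place. The rhein lists also held a coding peak of Hist1h1c, which scored 7.66 in rhein MCE but 43.8 in rhein Diff, the fifth largest gap of the 3067 identical spans. Hist1h1d had a peak over its start codon in the 3 DMSO lists, and none in rhein. Its score was 29.4 in DMSO MCE, but 4.95 in DMSO Pre (rank 2525 of 2824) and 4.31 in DMSO Diff (rank 2937 of 2944), near the lowest scores listed.

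Of all 81 histone genes examined, 5, 15, 5 and 12 had a peak in list order. These counts include H1f0, which was chosen for its peaks and had one in each list. The shares over all coding genes, 6.92%, 12.5%, 6.70% and 7.47%, were close to those of the histone genes in DMSO Pre and DMSO Diff, which were 6.17% in both, and below the 18.5% of DMSO MCE and the 14.8% of rhein MCE. The 61 replication-coupled core histone genes gave 0, 7, 0 and 5, and the shares in DMSO MCE and rhein MCE, 11.5% and 8.20%, were near those over all coding genes. Hist1h2al, named above for its pair with Gm44341, is not in these counts, although its peak scored 32.6 in rhein MCE. The 9 replacement core histone genes gave 2, 3, 1 and 3. H3f3b, for the replacement histone H3.3, had a peak in every list, with best scores of 8.63, 9.46, 5.87 and 7.07 in the same order. H2afx, for the histone phosphorylated at DNA breaks, had a best score of 14.4 in DMSO MCE and 28.3 in rhein MCE and no peak in DMSO Pre or DMSO Diff. In bulk samples the share of cells in S phase, RNA per cell and methylation cannot be told apart behind these counts, and none was tested.

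Of the 6 genes annotated within 20 kb of H1f0, only Gm49544 had a peak, which is the minus-strand peak described above. With 6.70% to 12.5% of all coding genes listed, so few neighbours with a peak is near that background, which covers coding genes only. The nearest other peaks outside the locus were 54.8 kb upstream, in Triobp in rhein MCE, and 59.0 kb downstream, in Eif3l in DMSO MCE.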

How the data were processed

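MeRIP-seq gave 10 libraries, 5 IP and 5 input, 1 of each per condition. As the study's methods state, adapters were cut by the authors (Trim Galore 0.6.5 in the submitters' processing notes), reads were aligned to mm10 (HISAT2 2.1.0), duplicates (Picard 2.23.5) and poorly mapped reads (SAMtools 1.9) were dropped, and peaks came from exomePeak2 at default parameters (its version, and how the default treats strand, are not given in the sources used here). Each of the 5 deposited lists gives a span, strand and 1 score per peak. The score was deposited under a header that names a log2 fold change, and read as minus log2 of an adjusted p the lowest score of a list corresponds to an adjusted p of 0.0500 to 0.0549. This reading rests on the values and is used only for the thresholds in the closing section. Which IP and input entered each list is not stated, and read depth is unknown.

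Peaks were placed on GENCODE M21 (GRCm38) transcripts of the same strand with both ends in exons, coding and then longest first, for 96.5% to 97.6% of a list. A shared peak had at least 1 base in common. Placement was tested on simulated peaks. The genome sequence and the second gene model are those of RefSeq for GRCm38. Python 3.11.15, pandas 2.3.3, SciPy 1.17.1 and pysam 0.24.0 were used. With 1 pair of libraries per condition no test was made.

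Named genes are H1f0, histone genes with a peak (with values for those in every list), neighbours with a peak, and the 5 genes most like H1f0 in score rank. Spop, Zfp36l2, Slc35e3, Gas1, Hist1h2al, Hist1h1d, H2afx, 4921516A02Rik, Pdxk and the nearest outside peaks were named after their values were seen. The members and gene lists were chosen with earlier results of these data known. One further pair of peaks on opposite strands is not reported here.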

Additional observations from a re-analysis of the deposited data

How the results depend on the processing

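With 1 library pair per condition and unknown depth, no value has a replicate error, and a peak that is not listed may only be below the threshold of its call. Of 90 alternatives, 58 were counted as leaving their value the same and 32 as moving it. Values counted as the same were not always unchanged. The best rank in DMSO Pre went from 491 to 389 when taken among genes. In rhein MCE 975 bases became 700 below an adjusted p of 0.001, and both were counted as the same. The sharpest limit is the score threshold. Reading the score as minus log2 of an adjusted p and asking for one below 1e-10, H1f0 kept 0 peaks on either strand and 0 bases in DMSO Pre and DMSO Diff. It kept 2 peaks on either strand and 150 bases in DMSO MCE and in each rhein list, so the 3′ peaks rest on the weaker calls. Below 0.001, DMSO Diff kept 1 peak and 200 bases. Rhein MCE kept 3 peaks and 700 bases, since the second 3′ UTR peak, not listed under DMSO, was lost. DMSO MCE kept 3 peaks and 300 bases, so at either threshold the MCE lists held equal numbers of H1f0 peaks. Below 0.001 the examined histone genes with a peak, H1f0 included, numbered 1, 8, 1 and 6 in list order, and 7 with rhein Diff.

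Ranked among peaks of like length, the best H1f0 peak was at rank 187, 6, 206 and 1 in list order, and at 1 with rhein Diff. Among the 282 spans identical in both MCE lists its rank was 29 in DMSO MCE and 1 in rhein MCE. If only identical spans counted as shared, the H1f0 locus had 0 shared peaks from DMSO Pre to DMSO MCE. It had 1 from DMSO MCE to DMSO Diff and 1 from DMSO Diff to rhein Diff. In each of the latter the identical span was that of the minus-strand peak. With DRACH in place of GGAC the motifs under peaks numbered 2, 9, 14 and 26, and 26 in rhein Diff. With the rhein Diff list for rhein MCE, the second 3′ UTR peak was at rank 1613. The count of bases under peaks of either strand was added after the data were seen. No paired analysis was possible with 1 library pair per condition, and no result comes from a test.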

Other observations

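The genes most like H1f0 were sought by how the rank of the best peak of a gene ran over the 4 distinct lists, among 621 genes with a peak in each. H1f0 stood in the top 17.4%, 1.502%, 25.9% and 0.0978% in list order. The nearest gene was Yy1, for a zinc finger transcription factor, at 17.8%, 6.94%, 20.9% and 3.49%, which adds up to a distance of 14.2 percentage points. The noncoding Gm48488 followed at 18.6, then Wbp1l at 19.3, Hnrnpa0, for an RNA-binding protein, at 21.4, and Vasn at 22.6. Hnrnpa0 was the only one of these 5 within the top 1% in rhein MCE, at 0.424%, and it was at 0.819% in DMSO MCE. Gm48488 is the antisense partner of Gas1 in the pair with the most unequal strands in rhein MCE.

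Of 14 genes for chaperones of linker histones or for proteins that compete with them on nucleosomes, 3, 7, 6 and 8 had a peak in list order. The shares over all coding genes were 6.92%, 12.5%, 6.70% and 7.47%. Those in every list were Ptma, for prothymosin, which binds linker histones, Npm1, for the nucleolar chaperone nucleophosmin, and Hmga2, for a chromatin protein that binds AT-rich DNA. The best peak of Npm1 had scores of 25.4, 44.4, 11.9 and 9.40, so between the MCE lists it ran opposite to that of H1f0. The best peak of Ptma had scores of 4.69, 14.1, 7.40 and 18.2, and that of Hmga2 12.3, 23.1, 7.57 and 17.5. Best peaks of a gene need not be the same span in each list, so these scores are set side by side only as listed.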
